A study of Mus musculus with 28 samples.

Results

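Histone H3 acetylated at lysine 27 (H3K27ac), a mark of active promoters and enhancers, was followed at the Id genes and the core of the bone morphogenetic protein (BMP) pathway in mouse mammary epithelial cells that were taken through a TGF-β-induced epithelial to mesenchymal transition with or without inhibition of ERK signalling. The genes were Id1, Id2, Id3, Id4, Bmp4, Bmp7, Bmpr1a, Bmpr2, Smad1 and Smad5. A peak belonged to them when its summit lay within 100 kb of a protein-coding start site of 1 of these 10 genes and no other protein-coding start site was nearer. By that rule 999 of 893719 peaks were members. Peaks of the 15 libraries that overlapped were merged, which gave 84 member regions of 89050 regions in all. Of these, 14 had their highest summit within 1000 bp of a start site and are called promoter regions, and 70 are called distal regions. A peak was called in every library at 32 member regions, 10 promoter and 22 distal, of 26934 such regions genome-wide, and differences in level were tested over those 26934.

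The cells were NMuMG/E9, a subclone of the NMuMG mouse mammary gland epithelial line, so all values describe 1 clonal line. There were 5 groups of 3 H3K27ac libraries each: untreated cells (0h), cells given 2 ng/ml TGF-β for 4 h (4h) or 24 h (24h), and cells given the MEK inhibitor UO126 at 25 µM 30 min before the same TGF-β treatments (ERKi 4h and ERKi 24h). The study's methods place the 0h, 4h and 24h libraries under the solvent DMSO, which the labels do not state for each sample, and no group had UO126 without TGF-β. The labels number the replicates and do not say whether they were separate cultures, so p-values measure the spread between these libraries, which may be technical. Of the epithelial marker genes, Cdh1, Krt8 and Krt18 had a promoter peak in all 15 libraries and Cldn4 in 11, whereas Epcam and Esrp1 had none. Of the markers of other cell types, Ptprc, Pecam1 and Des had no promoter peak and Col1a1 had one in all 15. In a bulk sample, a mark in fewer cells and less of the mark in each cell cannot be told apart.

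BMPs are secreted ligands of the TGF-β superfamily. They bind pairs of type I receptors such as BMPR1A and type II receptors such as BMPR2, which phosphorylate SMAD1 and SMAD5, and these enter the nucleus with SMAD4. The Id genes are the best known direct targets of this branch. Id proteins carry a helix-loop-helix domain but no DNA-binding region, and they hold E proteins and other basic helix-loop-helix factors away from DNA. In mammary epithelial cells Id proteins are known to oppose differentiation and the loss of epithelial character under TGF-β.

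The level of a region in a library is given as the scaled pileup, the number of fragments stacked at the highest summit of the region divided by a scale factor for that library. It was recovered from the fold enrichment and the p-value that the peak caller MACS2 wrote for each peak. The local background is the number of fragments that MACS2 expected at the same summit, on the same scale. Its 0h means over the 32 regions ran from 3.31 at Smad5 -24.0 kb, where the pileup was 22.5, to 90.8 at Id1 +1.72 kb, where it was 177. Whether it was taken from an input or from the ChIP's own surroundings is not given in the sources used here, and in the latter case a broad loss lowers both values and cancels in the fold enrichment. Libraries held 50445 to 69180 peaks and 55 to 79 member peaks, and scale factors ran from 0.777 to 1.37. Depth in reads is unknown here, so no counting error is given. Distances are in kb from the start site, negative upstream. The map of all 84 regions shows which were called in which library.

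**Figure D1:**
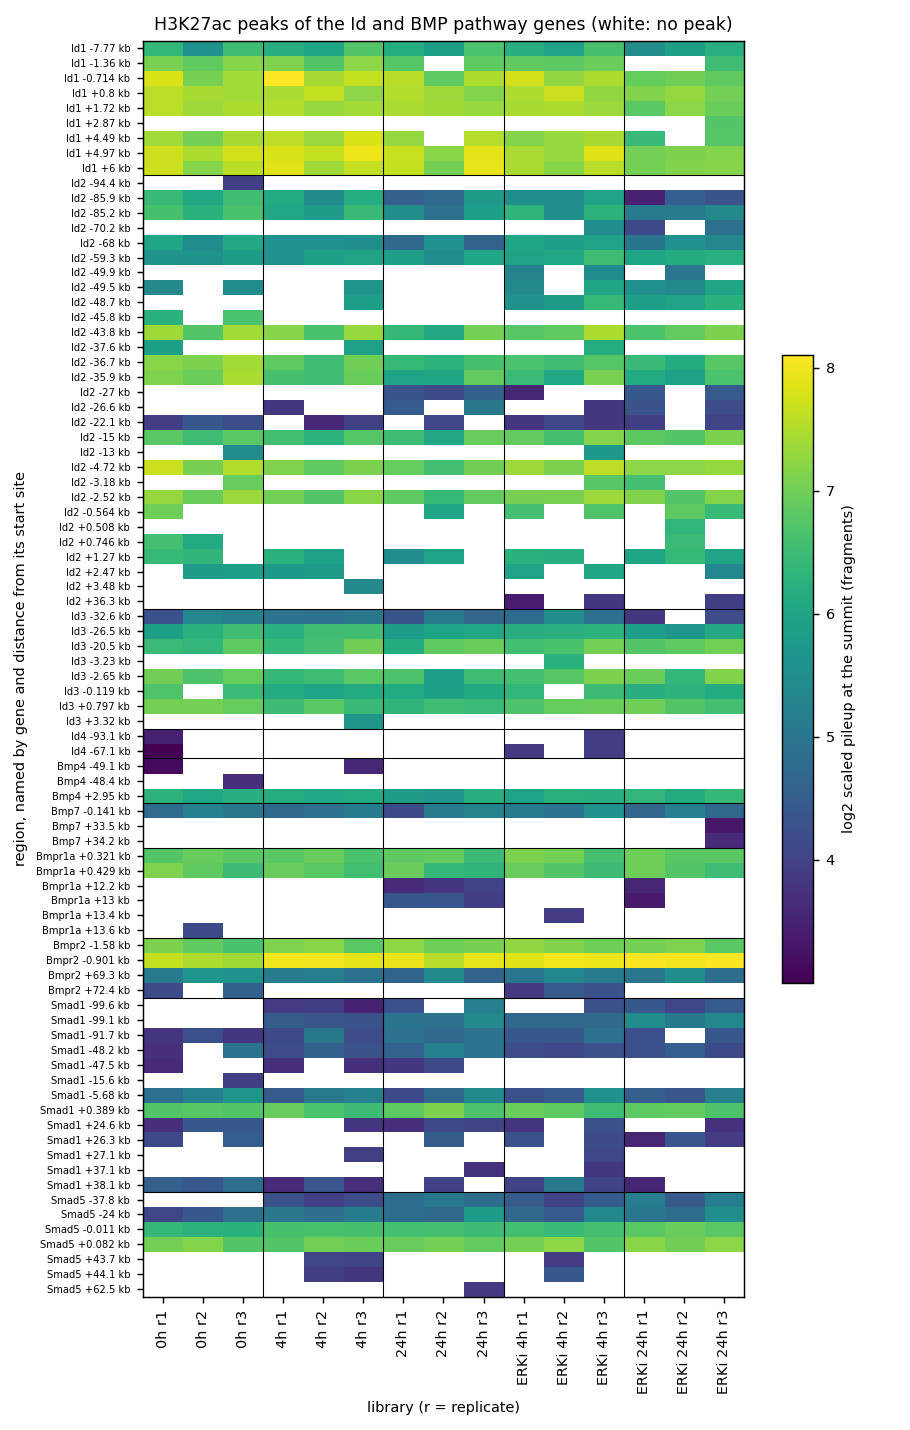
Scaled pileup (log2, colour scale, fragments) of each of the 84 member regions (rows, by gene and distance in kb) in each of the 15 libraries (columns, by group and replicate). White marks a library without a peak there. The highest distal levels are at Id1, Id2 has the largest number of regions with 29, and Id4 has only 2 regions, each called in 3 libraries or fewer.

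The sequences of 6 regions that carry the differences described below are given first, as 300 bases around the highest summit, or 207 bases at Id3, where the window was shortened to leave out an untranslated region. They come from the reference of the build of the peak lists (mm9, NCBIM37) and are written 5′ to 3′ on the strand of the gene. Capitals mark any match to the 5 motifs searched.
Id2 -85.9 kb, where H3K27ac was lower at 24h than at 0h (chr12:25866703-25867002, strand -): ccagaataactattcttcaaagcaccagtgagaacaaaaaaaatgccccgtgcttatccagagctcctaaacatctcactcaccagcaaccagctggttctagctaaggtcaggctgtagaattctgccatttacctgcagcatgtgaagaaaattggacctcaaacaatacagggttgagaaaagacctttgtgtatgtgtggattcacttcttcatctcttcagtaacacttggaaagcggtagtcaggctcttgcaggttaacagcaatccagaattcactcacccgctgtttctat
Id2 -36.7 kb, the member with the lowest adjusted p at 24h (chr12:25817519-25817818, strand -): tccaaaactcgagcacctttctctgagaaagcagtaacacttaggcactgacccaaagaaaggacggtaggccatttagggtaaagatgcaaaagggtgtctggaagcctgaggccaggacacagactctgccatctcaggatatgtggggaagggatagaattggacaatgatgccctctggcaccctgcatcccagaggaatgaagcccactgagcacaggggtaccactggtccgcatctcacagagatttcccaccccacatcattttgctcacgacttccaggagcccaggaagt
Id2 -4.72 kb, nearest to the gene of the regions that fell, with 2 GC-rich Smad boxes in capitals (chr12:25785530-25785829, strand -): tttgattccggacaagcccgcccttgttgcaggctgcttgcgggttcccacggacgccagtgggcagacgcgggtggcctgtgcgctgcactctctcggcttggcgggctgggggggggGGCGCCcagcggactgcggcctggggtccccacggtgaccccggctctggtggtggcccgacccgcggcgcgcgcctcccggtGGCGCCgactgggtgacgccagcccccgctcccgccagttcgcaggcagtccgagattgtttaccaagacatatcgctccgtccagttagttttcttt
Id3 +0.797 kb, the only promoter region that fell, with its summit in a coding exon (chr4:135700059-135700265, strand +): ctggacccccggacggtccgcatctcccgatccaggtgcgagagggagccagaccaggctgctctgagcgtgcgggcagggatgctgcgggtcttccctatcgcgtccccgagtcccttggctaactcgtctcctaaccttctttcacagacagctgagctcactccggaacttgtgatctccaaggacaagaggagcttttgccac
Smad5 -37.8 kb, called in no 0h library and in all others (chr13:56766426-56766725, strand +): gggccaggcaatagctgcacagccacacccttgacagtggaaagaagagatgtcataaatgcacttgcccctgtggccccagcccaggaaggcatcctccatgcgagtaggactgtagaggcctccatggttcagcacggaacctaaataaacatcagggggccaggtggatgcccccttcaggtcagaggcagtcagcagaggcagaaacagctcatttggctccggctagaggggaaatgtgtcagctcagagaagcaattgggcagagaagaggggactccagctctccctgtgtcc
Smad1 -99.1 kb, with the same calls (chr8:82022351-82022650, strand -): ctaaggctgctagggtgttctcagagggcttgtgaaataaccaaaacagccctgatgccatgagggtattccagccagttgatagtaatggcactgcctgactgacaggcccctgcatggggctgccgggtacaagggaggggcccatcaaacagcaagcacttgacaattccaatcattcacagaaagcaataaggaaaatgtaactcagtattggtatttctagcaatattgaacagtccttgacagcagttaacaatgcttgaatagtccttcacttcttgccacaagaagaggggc

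The motifs were those bound by AP-1 (TGAGTCA), by CREB (TGACGTCA), by Smad3 and Smad4 as a palindrome (GTCTAGAC), by Smad1 and Smad5 as a GC-rich box (GGCGCC) and by ETS factors (CCGGAAG), each searched on both strands. Of the 7 regions that fell, none held the AP-1, CREB, palindrome or ETS letters, which 4.20%, 0.431%, 0.256% and 4.71% of the 26934 regions with a peak in every library held in windows of this length. The GC-rich box was in 1 of the 7, against 12.2% of those regions. Some known BMP response elements pair the GC-rich box with GTCT 5 bases on, and only this spacing was searched. That pair was absent within 1000 bp of the member start sites, and a wider window of 1500 bp, chosen after this was seen, held it at 2 of 17 member start sites, those of Id3 and Id4, against 0.372% of all protein-coding start sites. The element holds the GC-rich box, which alone was within 1500 bp of 14 of the 17 and of 42.5% of all. Start sites of the same gene have overlapping windows, so the 17 are not independent. Smad5 and Bmpr1a have 4 start sites each, and the same boxes were counted at several of them. At Id1 the GC-rich box lay at -1099 bp without GTCT at that spacing, which does not show that it lacks a partner at another spacing. These matches describe letters in a window and show no binding.
Id1, GC-rich box (chr2:152560888-152560893 for the capitals, strand +): cccgcgcGGCGCCagcctga
Id3, box and GTCT (chr4:135700708-135700722 for the capitals, strand +): cctccctGGCGCCGGCCAGTCTgcggcat
Id4, box and GTCT (chr13:48358259-48358273 for the capitals, strand +): ggtcggtGGCGCCAGTTAGTCTgcagcga

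The question of the time course was how H3K27ac at these genes moved under TGF-β. At 24h against 0h, 7 of the 32 regions with a peak in every library were lower and none was higher (limma, adjusted p under 0.05), whereas 6.55% of all 26934 regions were lower and 10.7% were higher. Of the 7, 6 lay upstream of Id2 and the other was the Id3 promoter region at +0.797 kb. The Id2 regions include close neighbours, at -85.9 and -85.2 kb and at -36.7 and -35.9 kb. Regions of the same locus may not vary independently, and the shares over all regions do not account for that. At 4h against 0h none of the 32 passed, against 3.63% of all regions. An unadjusted p under 0.05 was found at 5 of the 32, beside 3656 of all 26934 regions. The median log2 difference over the 32 regions was -0.19 at 24h, beside -0.03 over all regions, and -0.08 at 4h, beside -0.04.

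Libraries with the same replicate number deviated together in all 30 pairs, so the fit was repeated with the number as a block. With the block 12 members were lower and 2 higher at 24h, against 17.2% and 18.7% of all regions, and 4 were lower and 2 higher at 4h, against 5.12% and 12.0%. Leaving out single libraries gave between 2 and 7 members at 24h, the lowest without 24h replicate 1, and 3 and 4 without 0h replicates 1 and 3. When the fold enrichment of the summit over its local background was tested in place of the pileup, none of the 7 was lower at 24h and 1 other member, Id2 -15.0 kb, was higher (adjusted p = 0.0446), against 2.31% of all regions lower and 2.26% higher, and with the block 4 members were higher by fold enrichment, against 5.51%.

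**Figure D2:**
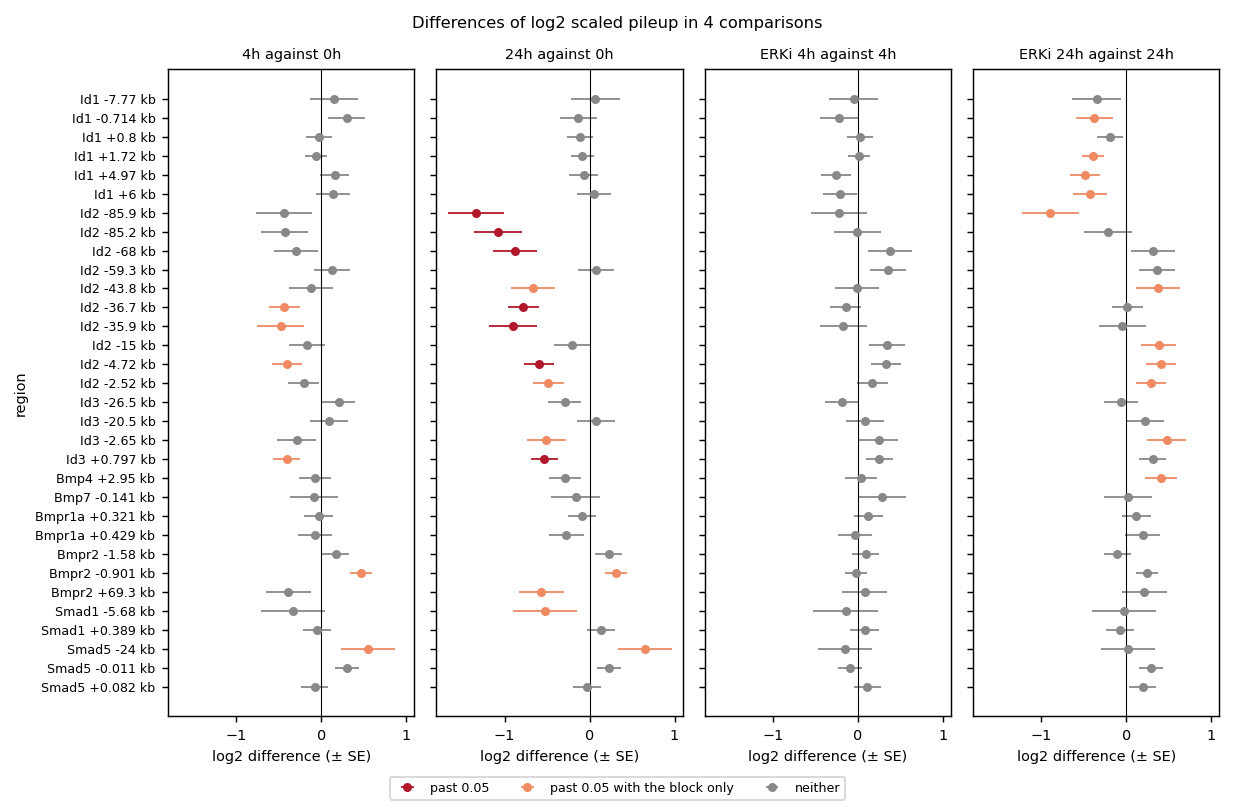
Log2 differences of the scaled pileup (points, with the standard error of the fit) for the 32 member regions in 4 comparisons. Red marks an adjusted p under 0.05, orange an adjusted p under 0.05 only with the replicate block, grey neither. The 7 red points are all at 24h against 0h and left of 0, at Id2 and Id3.

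Id2 (chr12:25778666-25780957, strand -), which codes for an inhibitor of E proteins that is abundant in many epithelia, had 29 regions, of which 26 were distal. At 0h the regions with a peak in every library ranged from 51.9 ± 3.46 fragments (SD, n = 3) at -59.3 kb to 175 ± 38.0 at -4.72 kb. At -36.7 kb the 0h libraries held 146, 137 and 169 fragments, the 4h libraries 115, 93.0 and 128, and the 24h libraries 86.0, 78.7 and 98.7. With ERKi the values were 101, 92.7 and 109 after 4 h and 88.1, 70.8 and 110.1 after 24 h. All 24h and all 4h libraries lay below all 0h libraries. The log2 difference of 24h from 0h was -0.78 ± 0.18 (SE, adjusted p = 0.00551), and this call held in all 15 fits without 1 library. The 4h difference was -0.43 ± 0.18 (adjusted p = 0.274, and 0.00707 with the replicate block).

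The neighbouring summit at -35.9 kb fell by 0.90 ± 0.28 on the log2 scale at 24h (adjusted p = 0.0335). Its 0h libraries held 139, 124 and 176 fragments and its 24h libraries 61.7, 65.0 and 117, which did not overlap. Further out, the pair of regions at -85.2 and -85.9 kb showed the largest differences of any member. At -85.9 kb the values were 86.6, 66.1 and 93.1 at 0h and 23.5, 26.2 and 53.4 at 24h, a log2 difference of -1.34 ± 0.33 (adjusted p = 0.00838). At -85.2 kb they were 98.3, 76.8 and 99.7 against 46.0, 29.7 and 58.6, a difference of -1.08 ± 0.28 (adjusted p = 0.0109). At both, every 24h library lay below every 0h library.

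At -68.0 kb the mean went from 59.2 ± 12.5 at 0h to 33.2 ± 12.8 at 24h (log2 difference -0.88 ± 0.26, adjusted p = 0.0247), although 24h replicate 2, at 47.9, lay above 0h replicate 2, at 44.9. Nearest to the gene, -4.72 kb held 208, 133 and 183 fragments at 0h and 120, 95.8 and 127 at 24h, without overlap (-0.60 ± 0.18, adjusted p = 0.0238). At 4h these regions at -35.9 and -4.72 kb passed with the block only, with differences of -0.48 and -0.41. Their adjusted p was 0.0107 and 0.011 with the block and no lower than 0.274 without it. Calls at -35.9, -68.0 and -4.72 kb each held in 11 of 15 fits without 1 library. They were lost without 0h replicate 1, 0h replicate 3 or 24h replicate 1 at all 3 regions, without 24h replicate 2 at -35.9 and -4.72 kb, and without 24h replicate 3 at -68.0 kb. The calls at -85.9 and -85.2 kb were lost only without 24h replicate 1 and 24h replicate 2, respectively.

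Not all of the Id2 landscape moved. At -59.3 kb, between regions that fell, the 24h level of 55.2 ± 9.79 was close to the 0h level (log2 difference 0.07, 95% interval -0.37 to 0.52). At -15.0 kb the difference was -0.21 (interval -0.65 to 0.23). The regions at -43.8 and -2.52 kb, with differences of -0.66 and -0.48, passed only with the replicate block (adjusted p = 0.094 and 0.0764 without it, 0.000483 and 0.000618 with it). The Id2 start itself carried no region called in every library: the promoter region at -0.564 kb was called in 6 libraries of the 15, where it held 65.0 to 127 fragments.

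**Figure D3:**
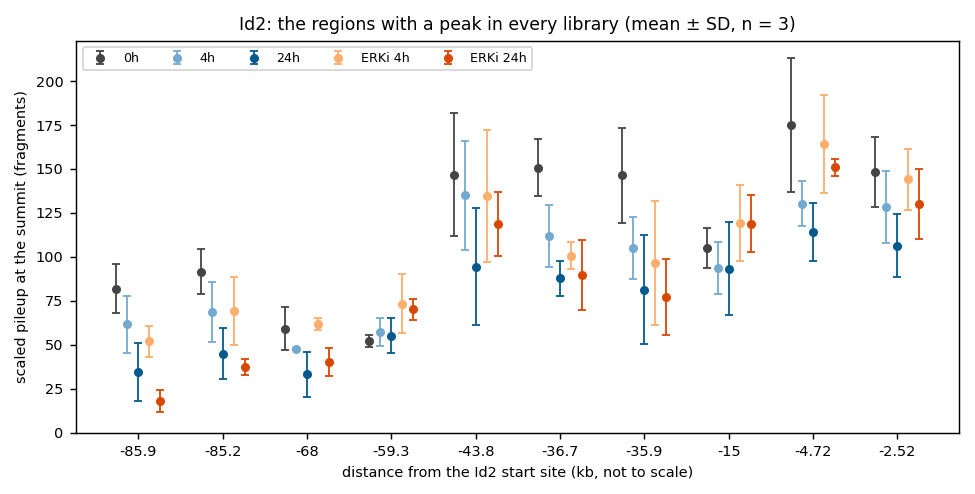
Scaled pileup (fragments, mean ± SD, n = 3) of the 10 Id2 regions with a peak in every library, by group and ordered by distance from the start site. At -85.9 kb the means step from 82.0 at 0h to 34.4 at 24h, whereas at -59.3 kb they stay between 51.9 and 57.0 from 0h to 24h.

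The local background fell along the same stretch. At -4.72 kb it was 51.1 ± 14.4 fragments at 0h and 26.5 ± 5.40 at 24h, and at -68.0 kb 11.8 ± 2.66 and 4.27 ± 1.15. Of the 32 members, 10 had a lower local background at 24h and none a higher one, against 9.26% and 14.1% of all regions. These 10 were -85.9, -85.2, -68.0, -43.8, -36.7, -35.9, -4.72 and -2.52 kb at Id2 and -2.65 and +0.797 kb at Id3. With the block 12 were lower and 3 higher at 24h (Bmpr2 -1.58 and -0.901 kb and Smad5 -24.0 kb), against 23.4% and 26.0%. At 4h none passed without the block, and 7 were lower and the same 3 higher with it, against 10.8% and 17.4%. Signal and background fell together, and the fold enrichment at -36.7 kb was 4.59 ± 0.340 at 0h and 5.20 ± 0.893 at 24h. At -85.9 kb it was 5.53 ± 0.142 and 4.94 ± 1.12, a log2 difference of -0.17 (adjusted p = 0.677). Of the 10 Id2 regions, -2.52 kb had the largest log2 difference of fold enrichment, with means of 2.49 ± 0.436 at 0h and 3.36 ± 0.351 at 24h (adjusted p = 0.0716).

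**Figure D4:**
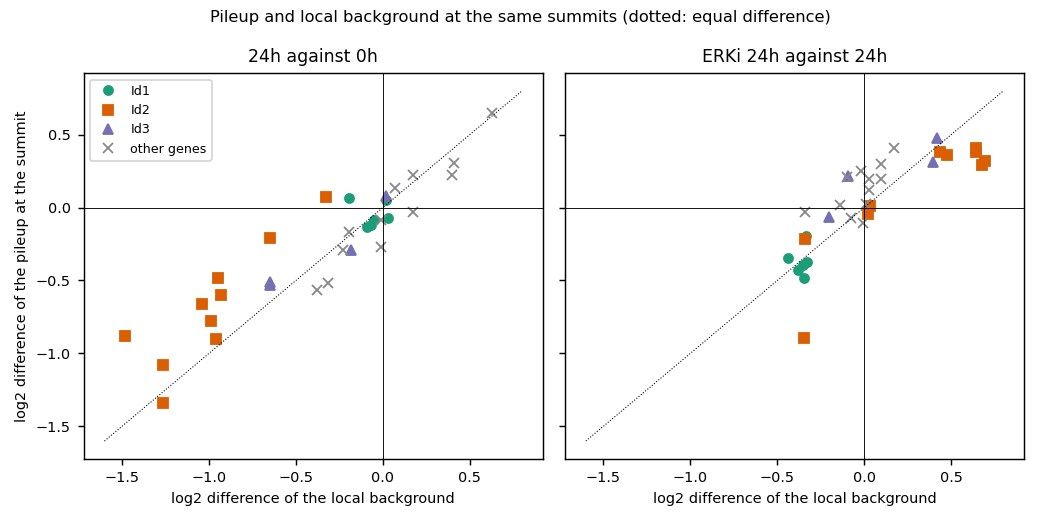
Log2 difference of the local background (x axis) and of the pileup (y axis) at the same 32 summits, for 24h against 0h (left) and ERKi 24h against 24h (right). Circles are Id1, squares Id2, triangles Id3 and crosses the other genes, and the dotted line marks an equal difference of both. At 24h against 0h 9 of the 10 Id2 squares lie in the lower left, and all of these but -85.9 kb lie above the line.

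Id3 (chr4:135699412-135701670, strand +), a close relative that is induced rapidly by BMP, had 8 regions. Of its 2 promoter regions, only that at +0.797 kb, with its summit in a coding exon, was called in every library. It held 131, 131 and 119 fragments in the 0h libraries, 90.1, 112 and 87.2 in the 4h libraries and 80.8, 93.6 and 89.4 in the 24h libraries. Every 4h and 24h library lay below every 0h library. The difference was -0.53 ± 0.16 at 24h (adjusted p = 0.0275, held in 11 of 15 fits without 1 library and lost without 0h replicates 1 or 2 or 24h replicates 1 or 3) and -0.41 ± 0.16 at 4h (adjusted p = 0.238, and 0.0261 with the block). With ERKi the values were 102, 119 and 123 after 4 h and 128, 106 and 95.3 after 24 h. All ERKi 24h libraries lay above all 24h libraries, with a difference of 0.31 ± 0.16 (adjusted p = 0.299, and 0.0691 with the block). The upstream region at -2.65 kb had a difference of -0.51 ± 0.23 at 24h (adjusted p = 0.154, and 0.00867 with the block), whereas at -20.5 kb the difference was 0.08 (interval -0.39 to 0.55). The other promoter region, at -0.119 kb, was called in 13 libraries and so was outside the fit. It held 104 and 88.8 fragments in 0h replicates 1 and 3, and 0h replicate 2 had no peak there. The 24h libraries held 69.5, 59.3 and 68.9 and the ERKi 24h libraries 74.2, 79.8 and 70.5.

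Id1 (chr2:152561987-152563146, strand +), the Id gene most often used as a readout of BMP signalling, carried the highest pileup of the Id genes. Its 6 regions with a peak in every library lay between -7.77 and +6.01 kb. At +4.97 kb the 0h libraries held 211, 178 and 217 fragments, the 4h libraries 223, 202 and 252, and the 24h libraries 203, 146 and 237. The groups overlapped. Over these 6 regions the log2 differences ranged from -0.13 to 0.07 at 24h and from -0.06 to 0.30 at 4h, and none passed with or without the block. For the promoter region at +0.8 kb the 95% interval of the 24h difference ran from -0.44 to 0.21.

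The pattern of the Id1 promoter region over the 15 libraries was most like those of Tsen15 (Pearson r = 0.932), L3mbtl2 (r = 0.900) and Nfxl1 (r = 0.896) among 11590 promoter regions. For the Id3 promoter region at +0.797 kb the closest were 2010002N04Rik (r = 0.862), Rprd2 (r = 0.855) and Adh7 (r = 0.845). All points share the same libraries and scaling, and these are descriptions with no test. Id4 (chr13:48356796-48359405, strand +), the remaining family member, had no promoter peak and no region beyond 3 libraries: -67.1 kb was called in 3 and -93.1 kb in 2.

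Of the ligands, Bmp4 (chr14:47003195-47010344, strand -) had no promoter peak and a single region in every library, at +2.95 kb in an intron of the gene. The 0h libraries held 79.3, 66.1 and 73.4 fragments, the 4h libraries 71.7, 65.6 and 69.8 and the 24h libraries 55.6, 51.3 and 73.99, and the groups overlapped (24h difference -0.29 ± 0.19, adjusted p = 0.369). Bmp7 (chr2:172693513-172765822, strand -) carried the promoter region with the lowest pileup of the genes that had one, with 27.7, 37.8 and 32.9 fragments at 0h and 18.2, 34.2 and 39.0 at 24h. Its 24h difference was -0.16, with an interval of -0.76 to 0.43.

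Of the receptors, Bmpr2 (chr1:59821481-59927703, strand +), the type II receptor, had the highest mean promoter pileup of all members at 0h. Its region at -0.901 kb held 202, 177 and 165 fragments at 0h and 256, 259 and 237 at 4h, so that every 4h library lay above every 0h library. The 4h difference of 0.47 ± 0.13 missed the threshold (adjusted p = 0.052) and passed with the block (adjusted p = 0.00174). At 24h the values were 248, 186 and 243 (0.31 ± 0.13, adjusted p = 0.12, and 0.0211 with the block). The local background there also rose with the block, from 23.0 ± 4.04 at 0h to 29.0 ± 3.92 at 4h and 30.4 ± 4.67 at 24h (adjusted p = 0.00249 and 0.000247 with the block), and by fold enrichment neither difference passed (adjusted p = 0.583 and 0.700 with the block). The strongest distal region, at -1.58 kb, held 138, 116 and 99.7 fragments at 0h and 151, 126 and 134 at 24h, with overlap (difference 0.22, interval -0.11 to 0.56). The intronic region at +69.3 kb held 34.9, 50.8 and 49.3 fragments at 0h and 25.2, 43.4 and 24.7 at 24h, with overlap (-0.57 ± 0.27, adjusted p = 0.173, and 0.018 with the block). At Bmpr1a (chr14:35223920-35316527, strand -), the type I receptor, the promoter region at +0.321 kb held 107 to 122 fragments at 0h and 89.4 to 118 at 24h (difference -0.09, interval -0.44 to 0.26).

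Of the Smads, Smad1 (chr8:81862294-81923417, strand -) had 105, 110 and 105 fragments at its promoter region, +0.389 kb, at 0h and 114, 137 and 103 at 24h (difference 0.13, interval -0.22 to 0.48). Its upstream region at -5.68 kb held 29.1, 37.8 and 51.5 fragments at 0h and 17.4, 26.2 and 42.1 at 24h, with overlap (-0.52 ± 0.38, adjusted p = 0.436, and 0.0439 with the block). Smad5 (chr13:56804371-56843738, strand +) had 2 promoter regions. At -0.011 kb the 0h libraries held 84.4, 79.1 and 77.8 fragments, the 4h libraries 98.8, 100.1 and 98.3 and the 24h libraries 95.6, 95.8 and 90.4, all above 0h (24h difference 0.22 ± 0.14, adjusted p = 0.345). The stronger promoter region, at +0.082 kb, showed no such rise. Its 0h libraries held 131, 143 and 106 fragments and its 24h libraries 122, 131 and 117, with overlap (24h difference -0.03). Its distal region at -24.0 kb rose with the block only, by 0.55 ± 0.32 at 4h (adjusted p = 0.509, and 0.0466 with the block) and 0.65 ± 0.32 at 24h (adjusted p = 0.195, and 0.00863 with the block). Its local background rose with the block from 3.31 ± 0.650 at 0h to 4.50 ± 0.674 at 4h and 5.20 ± 1.61 at 24h (adjusted p = 0.0117 and 0.000514), and by fold enrichment neither passed (adjusted p = 0.551 and 0.507 with the block).

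For each gene the promoter region with the highest mean log2 scaled pileup over the 15 libraries was taken. Their levels at 0h ran in the order Bmpr2 (181 ± 18.5), Id1 (177 ± 12.0), Id3 (127 ± 6.70), Smad5 (127 ± 18.7), Bmpr1a (113 ± 7.61), Smad1 (107 ± 2.78) and Bmp7 (32.8 ± 5.06). Of the promoter regions not taken, Id1 -0.714 kb held 177 ± 48.6 at 0h and Bmpr1a +0.429 kb 116 ± 24.1. Neighbours in that order overlapped except Id1 with Id3 and Smad1 with Bmp7. The order is that of the pileup, and the mean fold enrichment of the same regions at 0h gave another. It was 10.5 at Smad1, 10.1 at Smad5, 8.53 at Bmpr1a and 7.68 at Bmpr2. At Bmp7 it was 7.52, at Id3 3.47 and at Id1 2.14. Id2, Id4 and Bmp4 had no promoter region called in every library.

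**Figure D5:**
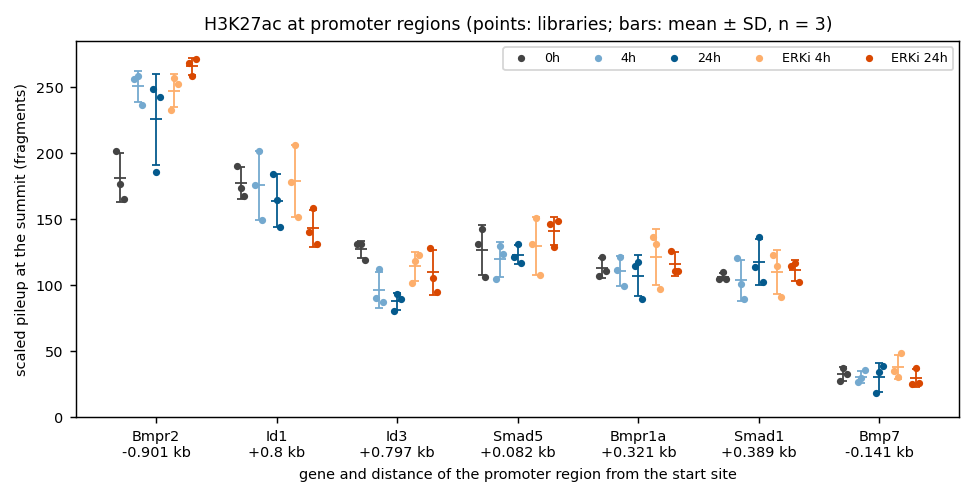
Scaled pileup (fragments) of the promoter region with the highest mean log2 level over the 15 libraries, for each gene that had one in every library, by group. Points are libraries and bars the mean ± SD (n = 3). The Bmpr2 mean is 181 at 0h and 251 at 4h, Id3 goes from 127 at 0h to 87.9 at 24h, and Bmp7 is lowest in every group.

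The question of the ERKi groups was which of these levels depended on ERK signalling. At 4h no member passed, against 0.230% of all regions. No member had an unadjusted p under 0.05, beside 1481 of all 26934 regions. With the block again no member passed, against 4.08%, while Id2 -15.0 kb and Id3 -2.65 and +0.797 kb, 3 of the 32, had a higher local background, against 4.23%. The median difference over the 32 members was 0.02 and the range -0.26 to 0.37. At 24h no member passed either, against 7.13% of all regions. An unadjusted p under 0.05 was found at 6 of the 32 members, beside 5417 of all 26934 regions. With the block 6 members were higher and 5 lower in ERKi 24h than in 24h, against 13.3% and 14.0% of all regions. These differences and those of 24h from 0h share the 24h libraries.

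The members lower in ERKi 24h with the block were 4 regions of Id1 and 1 of Id2. At Id1 +4.97 kb the ERKi 24h libraries held 131, 138 and 143 fragments against 203, 146 and 237 at 24h, without overlap (-0.48 ± 0.17, adjusted p = 0.11, and 0.00127 with the block). At +1.72 kb they held 112, 148 and 125 against 176, 167 and 159, again without overlap (-0.39 ± 0.13, adjusted p = 0.0871, and 0.00775 with the block). The other two were at -0.714 kb (-0.38, adjusted p = 0.38, and 0.0285 with the block) and +6.01 kb (-0.43, adjusted p = 0.236, and 0.0102 with the block), and all 6 Id1 regions had a negative difference. At 4h the same 6 ranged from -0.26 to 0.03. With the block the local background of all 6 was also lower in ERKi 24h than in 24h (adjusted p = 0.0101 to 0.0373). By fold enrichment with the block none of the 6 passed (adjusted p = 0.234 to 0.960). The Id2 region at -85.9 kb, which had the largest drop at 24h, was lower still with ERKi, at 11.01, 23.2 and 20.1 fragments (-0.89 ± 0.33, adjusted p = 0.122, and 0.00486 with the block).

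The members higher in ERKi 24h with the block were Id2 at -43.8, -15.0, -4.72 and -2.52 kb, Id3 at -2.65 kb and Bmp4 at +2.95 kb. At Id2 -4.72 kb the ERKi 24h libraries held 148, 148 and 157 fragments, all above the 24h libraries (0.41 ± 0.18, adjusted p = 0.19, and 0.00666 with the block). At -43.8, -15.0 and -2.52 kb the adjusted p was 0.478, 0.339 and 0.416 without the block and 0.0492, 0.0175 and 0.0421 with it. As fold enrichment over the local background the difference was -0.27 at -4.72 kb. At -43.8, -15.0 and -2.52 kb it was -0.096, -0.27 and -0.43. At Id3 -2.65 kb it was 0.0094 and at Bmp4 +2.95 kb 0.21. None of these 6 passed by fold enrichment with the block (adjusted p = 0.0667 to 0.979). The pileup difference at Id3 -2.65 kb was 0.47 ± 0.23 (adjusted p = 0.26, and 0.0191 with the block) and that at Bmp4 was 0.41 ± 0.19 (adjusted p = 0.234, and 0.0372 with the block). The regions at Id2 -36.7 and -35.9 kb, which had fallen at 24h, were not among them, with pileup differences of 0.01 (interval -0.37 to 0.40) and -0.04 (interval -0.64 to 0.55). At the Smad5 promoter region at -0.011 kb and the Bmpr2 promoter region all ERKi 24h libraries lay above all 24h libraries, at 111 to 124 and 259 to 271 fragments, and neither passed (0.29 ± 0.14 and 0.25 ± 0.13, adjusted p = 0.252 and 0.302). At the Smad5 promoter region at +0.082 kb the ERKi 24h libraries held 146, 129 and 149 fragments and overlapped the 24h libraries. The local background at Id2 -2.52 kb was the only one that passed without the block, at 49.2 ± 1.89 fragments in ERKi 24h and 30.9 ± 4.05 at 24h (adjusted p = 0.027), against 3.52% of all regions higher. With the block 8 members had a higher and 6 a lower local background, against 16.9% and 24.7%. By fold enrichment with the block only Id2 -85.9 kb passed, and it was lower (adjusted p = 0.0275), against 2.82% of all regions lower.

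The difference between the ERKi effects at 24h and 4h was tested directly. No member passed and 0 of all 26934 regions did. An unadjusted p under 0.05 was found at 1 member, beside 1449 of the 26934 regions. With the block no member passed, against 3.94% of all regions. For Id1 the 6 values ran from -0.41 to -0.15 and the lowest adjusted p was 0.911, so an ERKi effect on Id1 particular to 24h was not shown.

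Some weaker regions were called in all libraries of a group and in none of another. At 4h against 0h these were 3 members, all gained, where 1.15% of all regions were gained and 0.396% lost. At 24h against 0h they were 5 members, all gained, against 4.91% gained and 2.07% lost. The Smad5 region at -37.8 kb was in both sets and held 19.2, 15.5 and 18.4 fragments at 4h and 28.7, 33.1 and 28.8 at 24h. It was called in every library but those of 0h. The Smad1 region at -99.1 kb had the same calls, with 22.7, 20.3 and 19.3 fragments at 4h and 31.3, 29.7 and 42.1 at 24h, and its neighbour at -99.6 kb was called in no 0h library, in all 3 at 4h with 14.9, 15.5 and 11.02 fragments, and in 2 of 3 at 24h with 19.1 and 37.0. Gained at 24h were also Id2 -27.0 kb, with 20.0, 18.3 and 23.6 fragments, and 2 regions in introns of Bmpr1a at +12.2 and +13.0 kb, with 12.2 to 20.8 fragments. A missing call means that no peak passed there and not that the mark was absent.

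Between ERKi and its solvent at 4h, 1 member was called only with ERKi, Bmpr2 +72.4 kb at 14.6, 22.2 and 19.3 fragments, where 0.221% of all regions were called only with ERKi and 0.314% only without. It was also called in 2 libraries of 0h. At 24h, 2 members were called only with ERKi, at Id2 -48.7 and -49.5 kb, against 1.49% only with ERKi and 1.21% only without. Id2 -48.7 kb held 57.3, 61.8 and 78.3 fragments in ERKi 24h and 48.5, 55.6 and 85.2 in ERKi 4h, and outside ERKi it was called in 1 library only, 4h replicate 3 at 57.9. Id2 -49.5 kb was also called in 2 libraries of 0h, 1 of 4h and 2 of ERKi 4h.

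The number of distal peaks per gene was compared between groups of 3, where an exact permutation test cannot give a two-sided p under 0.1, so that none of the 40 comparisons of 10 genes could pass. Groups that did not overlap are given instead. At 24h against 0h these were Id3 (7.67 ± 0.577 against 5.67 ± 0.577), Bmpr1a (2 ± 0 against 0.333 ± 0.577) and Smad5 (4 ± 0 against 1.67 ± 1.15), as 19.1% of 12198 genes did. At ERKi 24h against 24h they were Id2 (23.7 ± 2.08 against 17.7 ± 2.08), Bmpr2 (3 ± 0 against 2 ± 0) and Smad5 (3 ± 0 against 4 ± 0), against 8.03% of genes. For each of these the exact permutation p was 0.1. No member qualified at 4h against 0h, against 5.94% of genes, or at ERKi 4h against 4h, against 2.43%. Id2 had the most distal peaks, with 16, 21 and 24 at 0h.

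A further list of 32 BMP pathway genes was read from the same fit, and 20 of them had a region in every library, 69 regions in all. All values for this list are pileup. Its local background and fold enrichment were not examined, so whether these differences hold by fold enrichment was not tested. By fold enrichment only 2.26% of all regions were higher and 2.31% lower at 24h against 0h. At 24h against 0h, 14 of these regions in 7 genes were higher and 5 in 4 genes lower (22 and 8 with the block), beside the 10.7% and 6.55% of all regions (18.7% and 17.2%) given above, with a median log2 difference of 0.11. At 4h, 9 in 5 genes were higher and none lower (22 higher and 1 lower with the block), beside 3.63% of all regions in either direction (12.0% and 5.12% with the block). At ERKi 24h against 24h, 4 were higher and 3 lower (13 and 10 with the block), beside 7.13% in either direction (13.3% and 14.0% with the block). At ERKi 4h against 4h 1 was lower (1 higher and 3 lower with the block), beside 0.230% (4.08% with the block). Msx1, a homeobox target of BMP, went from 30.3 ± 5.69 to 116 ± 34.0 fragments at -51.5 kb by 24h (adjusted p = 8.78e-05). Acvr1, a BMP type I receptor, rose at its promoter region from 115 ± 5.54 to 193 ± 20.0 (adjusted p = 0.000857), and Fst, which codes for the activin and BMP antagonist follistatin, rose at -35.4 kb from 28.3 ± 6.80 to 78.8 ± 18.6 (adjusted p = 0.000717).

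Smad7, the inhibitory Smad that both TGF-β and BMP induce, rose at its promoter region at -0.57 kb from 135 ± 23.1 to 219 ± 33.3 at 24h (adjusted p = 0.00577) and was lower at +87.4 kb in ERKi 24h, at 57.9 ± 8.73 against 159 ± 32.5 at 24h (adjusted p = 0.000728). Lower at 24h than at 0h were Atoh8 at -9.24 kb (57.7 ± 14.2 against 137 ± 38.7, adjusted p = 0.00405) and the ligand gene Bmp2 at -53.6 kb (49.4 ± 8.98 against 89.3 ± 11.4, adjusted p = 0.0184). Atoh8 was lower at +19.2 kb as well, at 39.3 ± 7.58 against 88.4 ± 28.0 (adjusted p = 0.0121). There it was higher in ERKi 24h than at 24h, at 104 ± 32.2 (adjusted p = 0.00956). Smurf1, a ubiquitin ligase for Smads, moved both ways at 24h, higher at -12.9 kb (adjusted p = 0.00242) and lower at +29.9 kb (adjusted p = 0.00492). At +29.9 kb it was higher in ERKi 24h, at 92.8 ± 17.2 against 50.8 ± 8.83 at 24h (adjusted p = 0.0162). Twsg1, which codes for a BMP-binding secreted protein, was higher in ERKi 24h at +19.5 kb, at 80.5 ± 19.5 against 31.9 ± 6.63 (adjusted p = 0.00792).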

How the data were processed

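H3K27ac ChIP-seq was read from 15 peak lists, 3 libraries for each of 5 groups. RNA-seq and input samples were not analysed here. The library number within the peak names of ERKi 4h replicate 1 is out of order with the other lists, and its group was taken from the sample record. The authors mapped the reads with Bowtie against mm9 and ran MACS2 on every library separately, per the methods, and the control used at that step is not given in the sources used here. The deposited values used were the fold enrichment at the summit, a ratio, and the −log10 p and −log10 q of each peak. The deposited score, a whole number made by the peak caller from the −log10 q, was not used. The authors kept peaks down to a −log10 q of 1.30. The fold was read as (pileup + 1) over (local background + 1) and the p as the Poisson tail of the pileup, and both were solved for the pileup. Of 893719 peaks, 25 were not solved to within 0.005 in −log10 p, none of them a member.

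Overlapping peaks were merged over libraries. A region's value in a library was its highest pileup there, divided by the library's median ratio to the geometric mean over regions with a peak in every library, and then log2-transformed. Regions with a peak in every library were tested with limma 3.58.1 (R 4.3.3), 5 groups in one fit with trended variance, with Benjamini-Hochberg adjustment over 26934 regions and a threshold of 0.05, without a replicate block. The fit was tested on simulated data first. Scripts used Python 3.11.15, pandas 2.3.3 and scipy 1.17.1. Same-numbered libraries deviated together: the correlation of their deviations from group means was over 0.1 in 30 of 30 pairs (mean 0.581, other numbers -0.284), so the numbers were taken to pair the libraries. Start sites were those of protein-coding transcripts in GENCODE vM1 (NCBIM37), and all 21 chromosomes of the peak lists fit within that reference. Alternatives were other measures, normalizations, filters, windows and promoter widths, the replicate block, and each library left out. The genes, gene lists and tests were chosen with earlier results of these data known. Named were all 10 genes, each promoter and strongest distal region, every region past the threshold, regions called in all of a group and none of another, and the 3 promoter regions most like Id1 and Id3. Other regions of these genes, Id2 -68.0 and -35.9 kb among them, were named after their values were seen. Up to 8 genes of the wider list were named by adjusted p.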

Additional observations from a re-analysis of the deposited data

How the results depend on the processing

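The direction of the 24h differences depended on the measure. As log2 fold enrichment in place of the pileup, with or without the replicate block, the values became 0.33 at Id2 -4.72 kb, 0.046 at -35.9 kb, 0.19 at -36.7 kb, 0.45 at -68.0 kb, 0.080 at -85.2 kb and 0.11 at Id3 +0.797 kb, and -85.9 kb kept its direction at -0.17. The local background fell at the same summits. Without the block none of the 6 passed, and with it -4.72 and -68.0 kb did. The counts of members past the threshold moved as follows. At 4h against 0h (0 as reported) they were 1 by percentile of the pileup, by quantile normalization, with regions in at least 3 libraries and with peaks of −log10 q of at least 10, and 6 with the replicate block. Each such 1 was higher. Over all regions 873 of 26934 were higher by percentile and 907 by quantile normalization. With regions in at least 3 libraries (65 members) 1558 of 60506 were higher, and with the −log10 q filter (21 members) 316 of 17594. At 24h against 0h (7 as reported, all lower) they were 1 by fold enrichment (higher), 14 with the replicate block (2 higher, 12 lower), 13 with regions in at least 3 libraries (5 higher, 8 lower), 3 with the −log10 q filter (lower) and 4 (higher) by fold enrichment with the replicate block, an alternative chosen after seeing the data. By percentile 6 passed at 24h, 1 higher and 5 lower, beside 2777 higher and 1421 lower of all 26934 regions. With regions in at least 3 libraries 9651 of all 60506 were higher and 3906 lower. With the −log10 q filter 502 of all 17594 were lower. At ERKi 24h against 24h (0 as reported) they were 2 by percentile (lower), 11 with the replicate block (6 higher, 5 lower), 1 with regions in at least 3 libraries (higher) and 1 (lower) by fold enrichment with the replicate block. Over all regions 649 of 26934 were lower by percentile, and 1733 of 60506 were higher with regions in at least 3 libraries. At ERKi 4h against 4h and for the difference of the ERKi effects every alternative gave 0. The replicate block changed no other call of the pileup than those given in the report. Leaving out 1 library gave 0 to 1 members at 4h (1 without 24h replicate 2), 2 to 7 at 24h, 0 at ERKi 4h and 0 to 2 at ERKi 24h (2 without 24h replicate 2). Of the regions called in all of a group and none of the other, both the −log10 q filter and a peak covering at least 0.5 of the region left 1 of 3 at 4h, 3 of 5 at 24h, 0 of 1 at ERKi 4h and 1 of 2 at ERKi 24h, and 500 bp summit windows left 1 at ERKi 24h. Without 1 library these were 3 to 6, 5 to 9, 1 to 6 and 2 to 4, since fewer libraries then had to share a call. Genes with distal peak numbers that did not overlap were 1 of 3 at 24h with the −log10 q filter and with the 50000 strongest peaks. At ERKi 24h they were 1, 0 and 0 of 3 with that filter, with the 50000 strongest peaks and within 50 kb. At ERKi 4h 1 gene moved in one direction in all 3 pairs of the replicate block, where 0 were reported. Without 1 library they were 0 to 1, 3 to 5, 0 to 2 and 3 to 4. The cause of the other changes was not tested. Depth in reads was not known, which limits what a missing call can show.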
